A study of Drosophila melanogaster with 4 samples.

Results

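*br* and *Eip75B*, a pair of long genes of the early response to the steroid hormone ecdysone, held 99 of the 19773 Ab peaks called in mosaic eye/antennal discs, with 54 of the 10892 peaks of the *scrib1*+*ab* sample and 45 of the 8881 peaks of the *ab* sample. A peak is an interval of dm3 (BDGP Release 5) that the authors called as enriched over the input of the same sample. Every peak with at least 1 bp in the stretch that the study's browser panel draws for the gene was included. That stretch is 96551 bp of arm X for *br* and 117234 bp of arm 3L, at 17943007 to 18060240, for *Eip75B*. The first base of an arm is position 1, and starts and ends both belong to a peak.

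Ab was pulled down with a polyclonal rabbit anti-Abrupt antibody from *Drosophila* eye/antennal discs, the larval epithelium that gives rise to the adult eye and antenna, at about 5 days after egg laying. In *scrib1*+*ab* discs the clones were mutant for *scrib1* (*FRT82B,scrib1*), a loss-of-function allele of the cell polarity gene *scribbled*, and expressed *UAS-ab55*, whereas in *ab* discs the clones expressed *UAS-ab55* alone. Clones in both genotypes were made by MARCM with *ey-FLP1* and *FRT82B*, in which *Tub-GAL4* drives the *UAS* transgene only in cells that have lost *Tub-GAL80*. Each disc therefore also held cells outside the clones, and the share of a disc taken up by clones and the binding per cell cannot be told apart. For each genotype 3 to 6 immunoprecipitations, each of about 100 discs, were pooled into 1 library with 1 input library, so no value below has a replicate error and each difference is one between these libraries. A ChIP from discs without overexpressed *ab* was not analysed here, and peak lists hold no expression values by which markers of the tissue could be checked.

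Ecdysone binds its receptor, a heterodimer of EcR and Usp, which switches on a small set of early genes, and the products of these genes then regulate the later responses that carry a tissue into metamorphosis. *br* (*broad*) encodes a family of BTB-zinc finger transcription factors that share the BTB domain and differ in the zinc finger exons spliced to it, and *Eip75B* encodes E75, a haem-binding nuclear receptor made in several isoforms from separate start sites. Ab is itself a BTB-zinc finger protein.

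Both genes have several start sites far apart. On dm3 *br* is drawn with 13 transcripts on the forward strand over 89689 bp of arm X, and *Eip75B* with 6 transcripts on the reverse strand over 113340 bp of arm 3L. Each has 6 start sites, numbered S1 to S6 here in the direction of transcription. In *br* S1 lies at 1469075, followed 34148 bp downstream by S2 (1503223), S3 (1504514), S4 (1506371), which 7 of the 13 transcripts use, and S5 (1507663), with S6 at 1516785. In *Eip75B* S1 (18057806), S2 (18054593) and S3 (18052937) lie close together, S4 (17992957) lies 64849 bp downstream of S1, and S5 (17964525) and S6 (17954982) lie towards the last exon. These positions were read from the panels, where 1 pixel is 80.7 bp for *br* and 97.4 bp for *Eip75B*, and carry an error of that size.

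Both windows held more peaks than their arms did on average. The study lists both genes as potential Ab targets with peaks in both samples, and drew its panels for such targets. A density above the arm average was therefore partly built into the choice of genes. The *br* window had 20 *scrib1*+*ab* peaks and 17 *ab* peaks, which is 20.7 and 17.6 per 100 kb, against 9.06 and 7.94 per 100 kb for arm X. The *Eip75B* window had 34 *scrib1*+*ab* peaks and 28 *ab* peaks, or 29 and 23.9 per 100 kb, against 9.1 and 7.71 per 100 kb for arm 3L. Other places on the arms held as many, among bins that cover the whole arm, the place of the window itself included. Of 233 bins of arm X as long as the *br* window, 21 (9.01%) had at least as many *scrib1*+*ab* peaks and 26 (11.2%) at least as many *ab* peaks. Of 210 such bins of 3L, 6 (2.86%) had at least as many *scrib1*+*ab* peaks as the *Eip75B* window and 5 (2.38%) at least as many *ab* peaks.

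The *ab* peaks covered more of both genes, and their lower number depended on how intervals were counted. With peaks within 100 bp joined, *br* had 15 *scrib1*+*ab* and 16 *ab* peaks and *Eip75B* 26 and 25, and with peaks within 500 bp joined *br* had 10 and 10 and *Eip75B* 15 and 18. With peaks of at least 40 bp, *br* had 16 *scrib1*+*ab* and 15 *ab* peaks and *Eip75B* 27 and 28. The *scrib1*+*ab* peaks summed to 2366 bp over *br* and 3265 bp over *Eip75B*, against 4351 bp and 5699 bp for the *ab* peaks. The median length in *br* was 76 bp (range 30 to 363 bp) in *scrib1*+*ab* and 196 bp (36 to 693 bp) in *ab*. In *Eip75B* it was 76.5 bp (26 to 277 bp) in *scrib1*+*ab* and 213 bp (46 to 429 bp) in *ab*. Joining within 100 bp brought the *scrib1*+*ab* median to 122 bp in *br* and 120 bp in *Eip75B*, and leaving out peaks under 40 bp brought it to 116 bp in *br*, all still below the *ab* medians. The whole lists had the same order, with medians of 69 bp in *scrib1*+*ab* and 151 bp in *ab*. Peaks shorter than the 40-bp read length set in PeakSeq were 11 of the 54 *scrib1*+*ab* peaks (20.4%, 95% interval 10.6 to 33.5%), beside 23.3% of the whole *scrib1*+*ab* list, and 2 of the 45 *ab* peaks (4.44%, 0.543 to 15.1%), beside 2.65% of the whole *ab* list. Both of these *ab* peaks lay in *br*. These intervals, and those of all shares below, are exact (Clopper-Pearson) and reflect only counting error. Of peaks of at least 500 bp, which made up 0.615% of the whole *scrib1*+*ab* list and 4.79% of the whole *ab* list, the 54 *scrib1*+*ab* peaks included none and the 45 *ab* peaks 2, both in *br*.

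**Figure D1:**
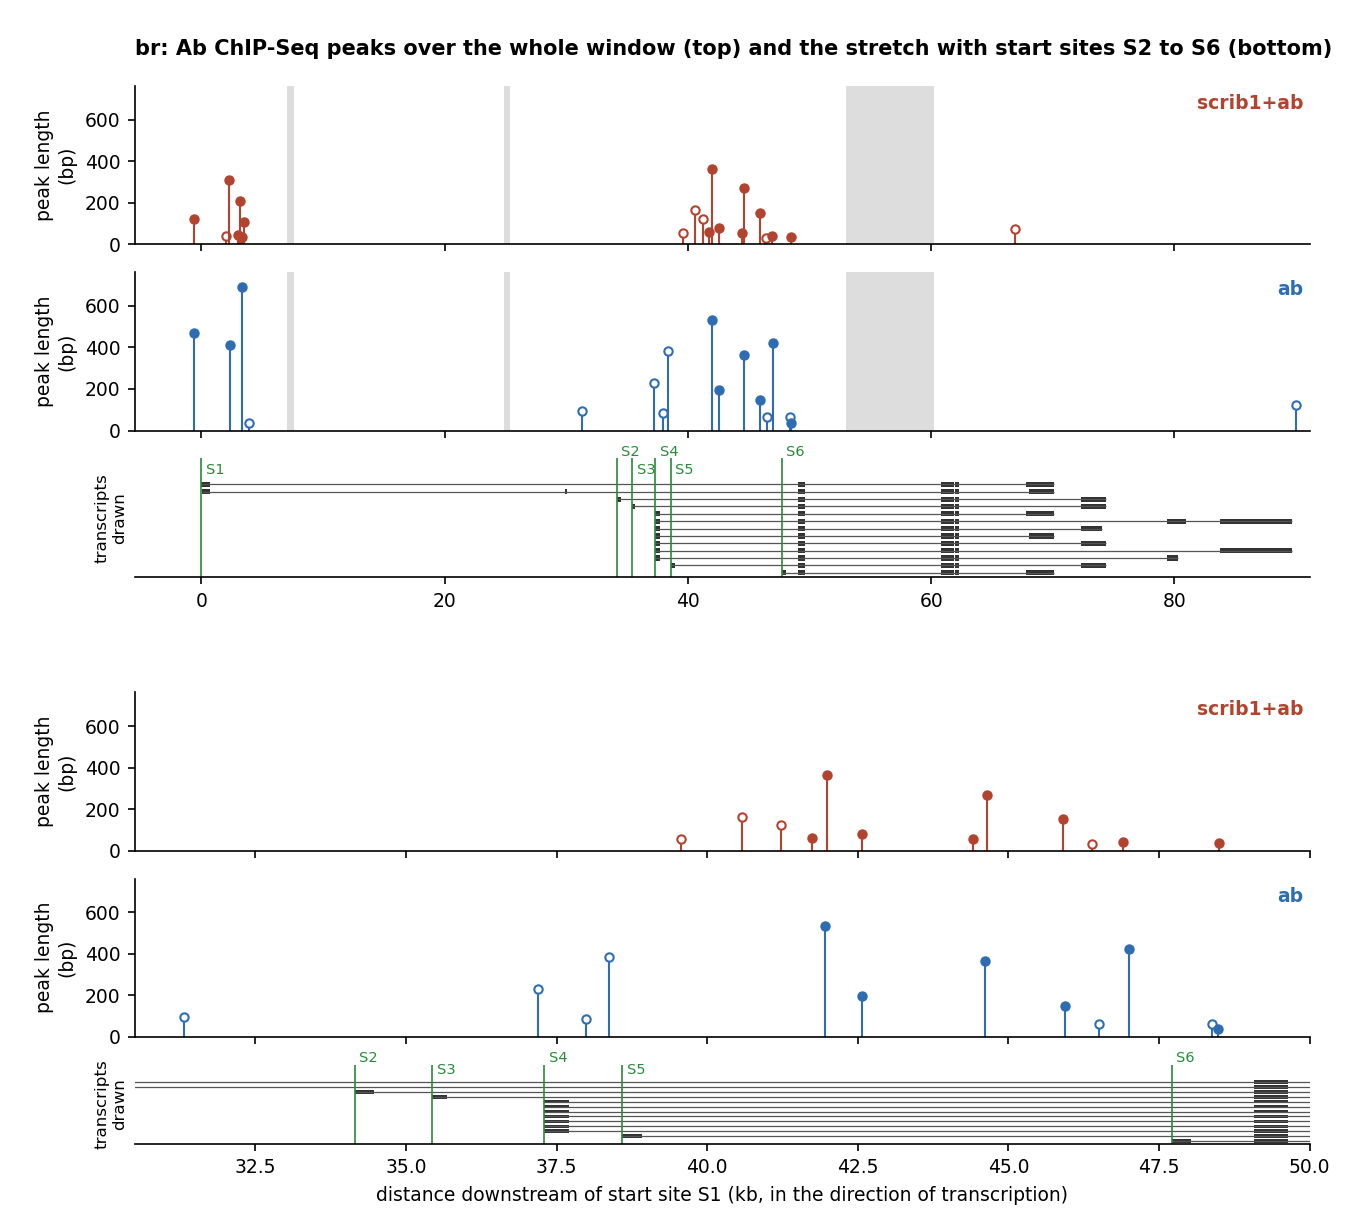
Ab peaks of *br* along the gene, by the distance of the peak's midpoint downstream of S1 (x axis, kb), with the length of each peak in bp as the height of its stem (y axis, from 0), *scrib1*+*ab* above *ab*. Filled points are peaks that overlap the other list, open points are peaks that do not, grey bands are stretches where the study's panel draws no read track in either sample, and green lines are start sites over the drawn transcripts, whose exons are black. The upper panels show the whole window and the lower panels S2 to S6, where the *ab* peaks at S4 and S5 have no *scrib1*+*ab* counterpart.

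The peaks of *br* fell into 2 stretches, one at S1 and one around S4 to S6, with the rest of the gene almost free of peaks. Upstream of S1 and in the 34148 bp between S1 and S2 there were 1 and 6 *scrib1*+*ab* peaks, against 1 and 4 *ab* peaks, and most of them stood within 5000 bp of S1 (7 *scrib1*+*ab* and 4 *ab* peaks). Upstream of S1 a 123-bp *scrib1*+*ab* peak (1468394 to 1468516) lay wholly inside a 470-bp *ab* peak (1468200 to 1468669). The *scrib1*+*ab* peak ended 559 bp and the *ab* peak 406 bp before S1. A promoter region was taken as the 500 bp upstream of a start site, so that only the *ab* peak reached it.

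Inside the first intron, a 308-bp *scrib1*+*ab* peak (1471237 to 1471544) lay within a 410-bp *ab* peak (1471230 to 1471639). Next to it the longest peak of either window, the *ab* peak at 1472048 to 1472740, covered 4 separate *scrib1*+*ab* peaks of 44, 209, 37 and 109 bp, of which the 209-bp peak (1472182 to 1472390) was the longest. Those 4 peaks together took up 399 of its 693 bp. The same stretch was thus called as 1 interval in *ab* and as 4 in *scrib1*+*ab*, and a count of peaks alone would have ranked *scrib1*+*ab* higher here. The *ab* peaks of this stretch ended with a 38-bp peak at 1472981 to 1473018, and the last of the *scrib1*+*ab* peaks ended at 1472644.

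Around S4 and S5 the lists differed. S4, the start site that most drawn transcripts use, lay inside a 228-bp *ab* peak (1506157 to 1506384), within a pixel of its downstream edge, and the nearest *scrib1*+*ab* peak was 2249 bp downstream. S5 had a 383-bp *ab* peak (1507254 to 1507636) that ended 27 bp upstream of it, the longest *ab* peak of *br* without an overlap in the other list. Between them stood an 84-bp *ab* peak. The *scrib1*+*ab* list had no peak in the 35975 bp from 1472645 to 1508619, which hold S2, S3, S4 and S5, and its first peak past S5 was a 56-bp interval at 1508620 to 1508675. Of these 35975 bp, 1049 have no read track in the panel in either sample. In both lists S2 and S3 had no peak within 1000 bp.

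Between S5 and S6 the order of the counts was the other way round. The 9122 bp between these sites held 11 *scrib1*+*ab* peaks, 7 of them shared, and 6 *ab* peaks, 5 of them shared, where shared means at least 1 bp in common with a peak of the other list. The longest *scrib1*+*ab* peak of *br*, 363 bp at 1510880 to 1511242, lay inside the second longest *ab* peak, 533 bp at 1510764 to 1511296, which also covered a 59-bp *scrib1*+*ab* peak. A 269-bp *scrib1*+*ab* peak at 1513581 to 1513849 lay inside a 363-bp *ab* peak at 1513509 to 1513871. In both places the *scrib1*+*ab* interval was thus nested in a wider *ab* interval. The first 3 *scrib1*+*ab* peaks past S5, among them the longest unshared one of *br* (164 bp, 1509573 to 1509736), had no *ab* counterpart, the nearest *ab* peak to each being 983, 1027 and 404 bp away.

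S6 had peaks on both sides. A 424-bp *ab* peak (1515870 to 1516293) ended 492 bp upstream of it, just inside the promoter region, and overlapped a 40-bp *scrib1*+*ab* peak (1515961 to 1516000), which ended 785 bp upstream and so was placed in the intron. Downstream of S6 a 37-bp *scrib1*+*ab* peak (1517558 to 1517594) and a 36-bp *ab* peak (1517534 to 1517569) shared 12 bp.

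Past these peaks lie the exons that all drawn transcripts of *br* share and, further downstream, the alternative last exons. From S6 to the end of the gene, 41978 bp, each list had 2 peaks. In *ab* no peak was called over the 41397 bp from 1517570 to 1558966, of which 7185 bp have no read track in the panel in either sample. In *scrib1*+*ab* the only peak of the gene past 1517594 was a 73-bp interval (1535951 to 1536023) between the shared exons and the first of the alternative last exons, 18381 bp from the nearest *ab* peak. The *ab* peak that ended the empty stretch (124 bp, 1558967 to 1559090) lay past the last exon of *br*, at the edge of the neighbouring gene *dor*, which the panel draws from 1559087. The exons of *br*, merged over its transcripts into 14 blocks that make up 18.3% of the gene's span, held no peak of either list apart from the edge of the *ab* peak over S4. With the lists pooled, the longest stretch of the *br* window without a peak was 27325 bp, from 1473019 to 1500343, nearly all of it in the first intron, and it ended at a 95-bp *ab* peak (1500344 to 1500438). Of these 27325 bp, 1049 have no read track in the panel in either sample.

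**Figure D2:**
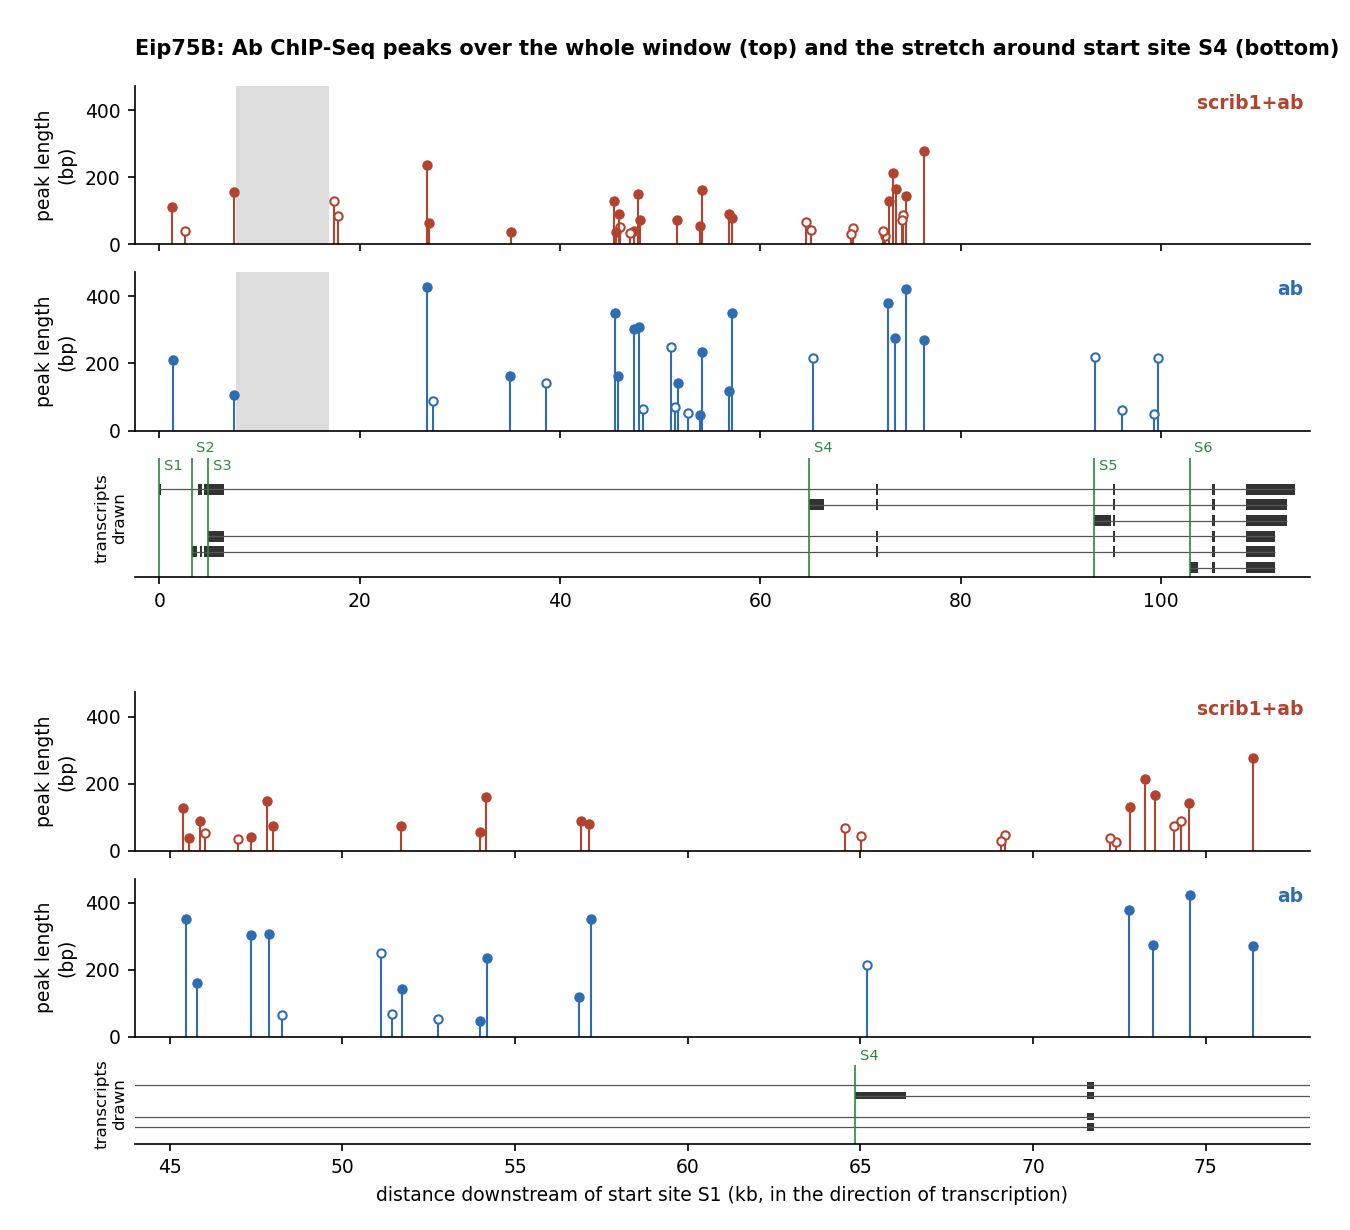
Ab peaks of *Eip75B* along the gene, drawn as for *br*: the distance of the peak's midpoint downstream of S1 is on the x axis (kb), the length of the peak in bp is the height of its stem (from 0), and *scrib1*+*ab* stands above *ab*, with filled points for peaks that overlap the other list and a grey band where no read track is drawn. The lower panels enlarge the stretch around S4. From S5 on the *ab* list has 4 peaks and the *scrib1*+*ab* list has none.

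In *Eip75B* the peaks lay mainly in the introns on both sides of S4. The 59980 bp between S3 and S4 held 20 *scrib1*+*ab* peaks, 15 of them shared, and 18 *ab* peaks, 12 of them shared. The 28432 bp between S4 and S5 held 12 *scrib1*+*ab* peaks and 5 *ab* peaks. The upstream end, with 3 start sites, had 2 *scrib1*+*ab* peaks and 1 *ab* peak between S1 and S2 and no peak of either list between S2 and S3 or upstream of S1. There a 112-bp *scrib1*+*ab* peak (18056459 to 18056570) lay inside a 211-bp *ab* peak (18056380 to 18056590), 1236 and 1216 bp downstream of S1.

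The longest *ab* peak of the gene, 429 bp at 18030865 to 18031293, lay in the intron between S3 and S4 and covered the second longest *scrib1*+*ab* peak, 237 bp at 18030986 to 18031222, and another of 65 bp. Another 3 of the 5 longest *ab* peaks each covered a shorter *scrib1*+*ab* peak by its whole length, namely those of 422 bp (17983044 to 17983465), 379 bp (17984855 to 17985233) and 350 bp (18000435 to 18000784), over *scrib1*+*ab* peaks of 143, 130 and 79 bp. The remaining one, 351 bp at 18012152 to 18012502, covered 2 *scrib1*+*ab* peaks of 128 and 37 bp. At the longest *scrib1*+*ab* peak of the gene the lists nearly coincided: it ran over 17981305 to 17981581 (277 bp), and its *ab* partner over 17981304 to 17981574 (271 bp). This pair stood alone, with 1462 bp to the next peak of either list on the side of S4.

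Near it, between S4 and S5, the *scrib1*+*ab* list had a dense run. Peaks of 214 bp (17984457 to 17984670) and 165 bp (17984197 to 17984361), the longest of the run, met the same 275-bp *ab* peak (17984207 to 17984481). With peaks of both lists joined where they lay within 500 bp, the 2547-bp stretch from 17983044 to 17985590 held 8 *scrib1*+*ab* peaks and 3 *ab* peaks, yet the *scrib1*+*ab* peaks summed to 879 bp there and the *ab* peaks to 1076 bp. A 161-bp *scrib1*+*ab* peak at 18003564 to 18003724, also among its 5 longest, lay inside a 234-bp *ab* peak on the other side of S4. The longest unshared peaks were 129 bp in *scrib1*+*ab* (18040350 to 18040478), 9056 bp from the nearest *ab* peak, and 250 bp in *ab* (18006573 to 18006822), 422 bp from the nearest *scrib1*+*ab* peak.

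At S4 the lists had peaks close to each other that did not overlap. The *scrib1*+*ab* list had a 67-bp peak in the promoter region (17993218 to 17993284) and a 44-bp peak in the first exon of that transcript (17992782 to 17992825), and the *ab* list a 215-bp peak in the same exon (17992501 to 17992715), 66 bp from the *scrib1*+*ab* one. The *scrib1*+*ab* promoter peak stood 502 bp from the *ab* peak, and none of the 3 was counted as shared. Besides the 44-bp and 215-bp peaks, no peak of either gene was placed in an exon. Exon blocks make up 11.3% of the span of *Eip75B*. Promoter regions took precedence, so the 219-bp *ab* peak over S5, whose midpoint lay in an exon, was not counted there.

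The downstream end of *Eip75B* had peaks in *ab* alone. A 219-bp *ab* peak (17964315 to 17964533) lay over S5, with its midpoint 101 bp downstream in the first exon of that transcript. Another 3 *ab* peaks of 217, 49 and 62 bp stood in the 7400-bp intron between S5 and S6, 2 of them within 5000 bp of S6. The *scrib1*+*ab* list had no peak in the 38298 bp from the end of the window at 17943007 to 17981304, and the nearest *scrib1*+*ab* peak to S5 was 16780 bp upstream. The read track is drawn over the whole of this stretch in the panel. Between S5 and the pair at 17981304 neither list had a peak for 16770 bp, the longest stretch between peaks of the gene with the lists pooled.

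One stretch of *Eip75B* without a peak was partly blank in the panel. The longest in *ab*, 18969 bp from 18031294 to 18050262, holds 9251 bp without a read track in either sample, and so does the 9775-bp stretch from 18040479 to 18050253 in *scrib1*+*ab*. Just past the edge of that blank, a 156-bp *scrib1*+*ab* peak (18050254 to 18050409) covered a 105-bp *ab* peak (18050263 to 18050367), the pair with the highest ratio of *scrib1*+*ab* to *ab* length in either gene. The part of the blank in the place where these peaks begin was not tested. The longest stretch between *scrib1*+*ab* peaks with a track throughout was 10258 bp, from 18012472 to 18022729, which ended at a 38-bp peak inside a 164-bp *ab* peak.

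Summed over start sites, the *ab* list had a peak in the promoter region of S1, S4, S5 and S6 of *br* and of S5 of *Eip75B*, and the *scrib1*+*ab* list had one at S4 of *Eip75B* and at no start site of *br*. All other peaks but 4 lay in introns, with 19 of 20 *scrib1*+*ab* and 12 of 17 *ab* peaks of *br*, and 32 of 34 *scrib1*+*ab* and 26 of 28 *ab* peaks of *Eip75B*. Exon blocks make up only 18.3% of the span of *br* and 11.3% of that of *Eip75B*, so introns take up most of both genes. Promoter and intron shares over the whole lists were not computed, so these counts have no background to be read against. The promoter counts depend on where the line is drawn. With 1000 bp upstream of a start site they were 2 in *scrib1*+*ab* and 5 in *ab* for *br*, and by the midpoint of the peak 0 in *scrib1*+*ab* and 2 in *ab*. With the gene model of *br* shifted by 1 pixel they were 1 in *scrib1*+*ab* and 5 in *ab* to the left, and 0 and 3 to the right.

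Between 52.9% and 70% of the peaks of a gene and list met the other list. In *br* 14 of 20 *scrib1*+*ab* peaks were shared (70%, 95% interval 45.7 to 88.1%) and 9 of 17 *ab* peaks (52.9%, 27.8 to 77%), beside 58.2% and 59.1% of the whole *scrib1*+*ab* and *ab* lists. In *Eip75B* 21 of 34 *scrib1*+*ab* peaks (61.8%, 43.6 to 77.8%) and 17 of 28 *ab* peaks (60.7%, 40.6 to 78.5%) were shared. Each of these intervals holds the share of its whole list. Some unshared peaks stood beside a peak of the other list. Of the unshared *scrib1*+*ab* peaks, 3 of 6 in *br* and 7 of 13 in *Eip75B* had an *ab* peak within 500 bp, beside 40.7% over the whole list, and of the unshared *ab* peaks 3 of 8 and 5 of 11 had a *scrib1*+*ab* peak as near, beside 43.1%. Joined over both lists within 500 bp, the peaks of *br* made 13 regions, of which 6 held peaks of both lists, 3 *scrib1*+*ab* peaks alone and 4 *ab* peaks alone. Those of *Eip75B* made 20 regions, 12 with both, 3 with *scrib1*+*ab* peaks alone and 5 with *ab* peaks alone. Over the whole lists 50.1% of 7849 such regions held both, 29% *scrib1*+*ab* peaks alone and 21% *ab* peaks alone.

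Shared peaks were longer than unshared ones in both lists, as over the whole lists. Over both genes the median length was 109 bp for the 35 shared and 52 bp for the 19 unshared *scrib1*+*ab* peaks, and 289 bp for the 26 shared and 87 bp for the 19 unshared *ab* peaks. The whole lists had medians of 94 and 48 bp in *scrib1*+*ab* and of 196 and 104 bp in *ab*. The unshared *ab* peaks at S4 and S5 of *br* and at S5 of *Eip75B*, at 228, 383 and 219 bp, were all longer than that 87-bp median, in which they are themselves counted. The unshared *ab* peak between S4 and S5 of *br*, at 84 bp, was shorter than the median. Of those between S5 and S6 of *Eip75B*, the peaks of 49 and 62 bp were shorter and that of 217 bp was longer.

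**Figure D3:**
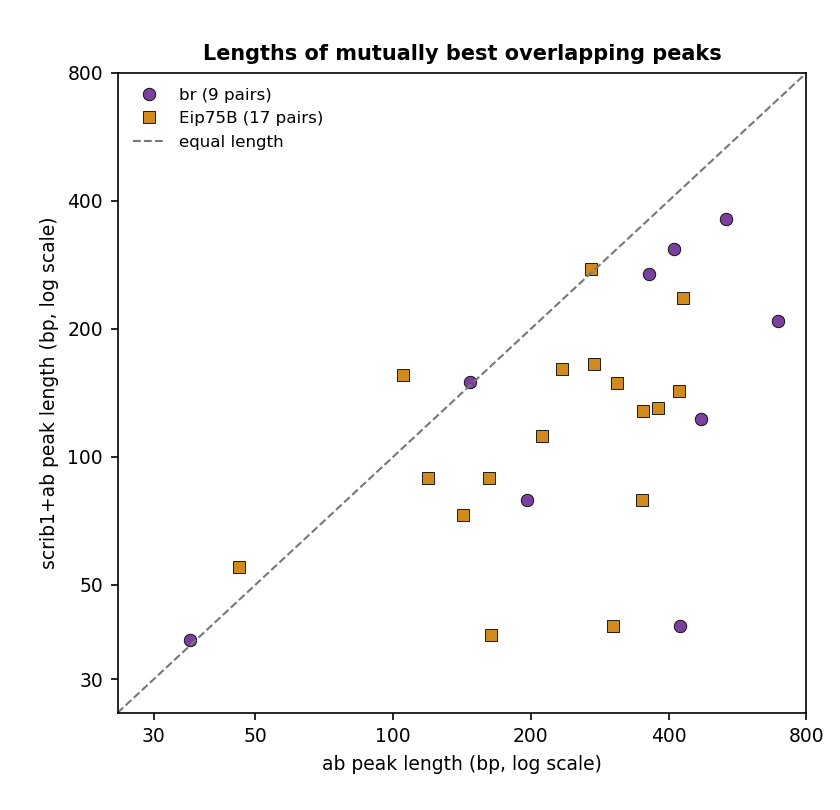
Length of the *scrib1*+*ab* peak (y axis, bp, log scale) against the length of its *ab* partner (x axis, bp, log scale) for the 9 mutually best overlapping pairs of *br* (circles) and the 17 of *Eip75B* (squares), with a dashed line at equal length. The points of 21 of the 26 pairs lie below the line, where the *ab* peak is the longer one.

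Overlapping peaks were set in pairs, each peak with the one it shared most bases with, if that choice was mutual. Of the 26 pairs the *scrib1*+*ab* peak was the longer one in 5 (19.2%, 95% interval 6.55 to 39.4%), 2 of 9 in *br* and 3 of 17 in *Eip75B*, beside 16.7% of all 5179 pairs. The median ratio of *scrib1*+*ab* to *ab* length was 0.681 in *br* (range 0.0943 to 1.03) and 0.531 in *Eip75B* (0.132 to 1.49), beside 0.578 over all pairs. The lowest ratio belonged to the pair upstream of S6 of *br*, at 40 and 424 bp, and 2 more pairs, both in *Eip75B*, had a *scrib1*+*ab* peak of 38 or 40 bp inside an *ab* peak of 164 or 303 bp. In 17 of the 26 pairs (65.4%, 44.3 to 82.8%) the *scrib1*+*ab* peak lay wholly inside the *ab* peak, beside 55% of all pairs, and the midpoints of the pairs were a median of 35.2 bp apart (up to 108 bp). In the other direction, 3 of 17 *ab* peaks of *br* and 4 of 28 of *Eip75B* met at least 2 *scrib1*+*ab* peaks, beside 11% of all *ab* peaks, and no *scrib1*+*ab* peak of either gene met more than 1 *ab* peak (0.835% of all *scrib1*+*ab* peaks did).

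Other genes share these windows. *Mur2B*, drawn on the opposite strand from within the first intron of *br* to between S5 and S6, spans 6 *scrib1*+*ab* and 6 *ab* peaks, which cannot be assigned to one gene by position. *CG32192* and *CG42393*, drawn inside the intron of *Eip75B* between S3 and S4, held no peak of either list, with the nearest 2241 bp (*scrib1*+*ab*) and 2170 bp (*ab*) from *CG32192*.

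**Figure D4:**
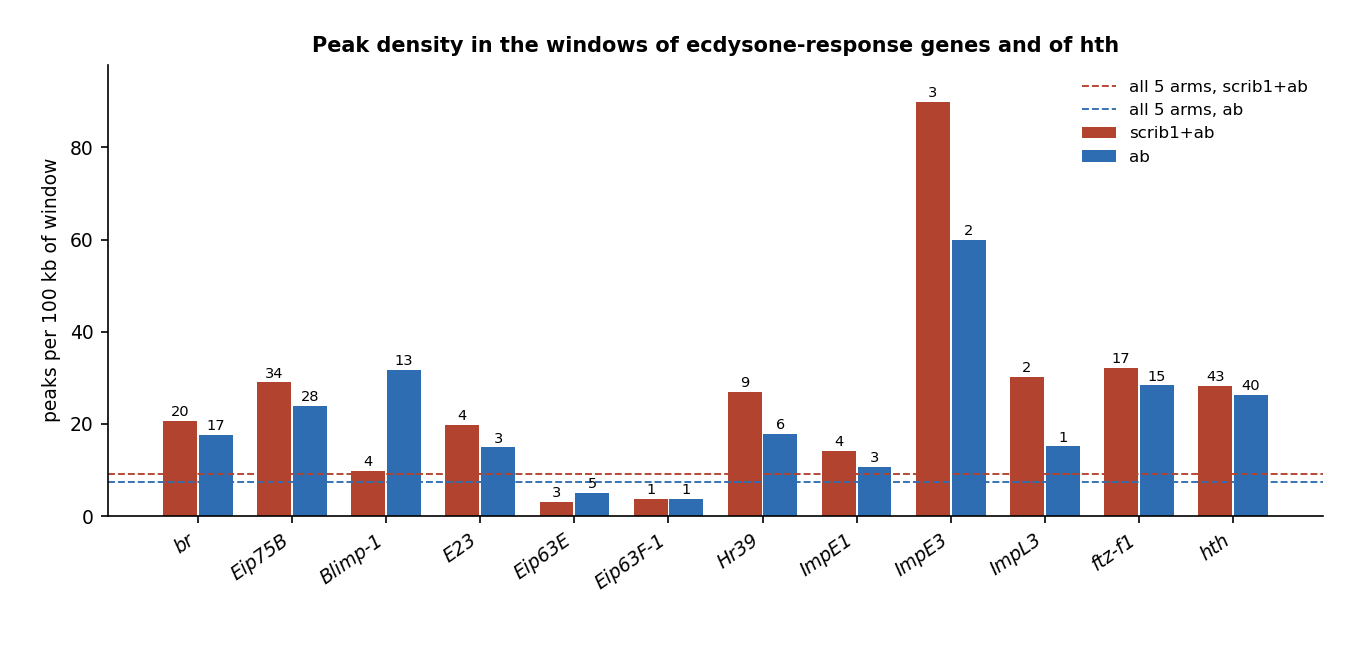
Ab peaks per 100 kb of window (y axis, from 0) for *br*, *Eip75B*, 9 other ecdysone-response genes and *hth*, with *scrib1*+*ab* (red) left of *ab* (blue) and the number of peaks above each bar; dashed lines mark the density over all 5 arms, 9.17 in *scrib1*+*ab* and 7.47 in *ab*. *br* and *Eip75B* stand above both lines, and the 2 genes below them in both lists are *Eip63E* and *Eip63F-1*. The study drew its panels for genes selected among its potential Ab targets.

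Among the other ecdysone-response genes whose panels were used, all 9 had a peak in each list, 47 *scrib1*+*ab* peaks and 49 *ab* peaks in sum. These panels were drawn for genes that the study had selected among its potential Ab targets. Having a peak was therefore close to a condition of entry. The density of these 9 genes ranged widely, between 3.04 and 89.9 per 100 kb in *scrib1*+*ab* (median 19.8) and between 3.7 and 59.9 in *ab* (median 15.1). *br* and *Eip75B* lay within these ranges. *ImpE3* gave the upper end in both lists, with 3 *scrib1*+*ab* and 2 *ab* peaks in a window of 3337 bp. Without it the highest densities were 32.2 in *scrib1*+*ab* (*ftz-f1*) and 31.7 in *ab* (*Blimp-1*). *ftz-f1*, which encodes a nuclear receptor of the prepupal response, had 17 *scrib1*+*ab* and 15 *ab* peaks, or 32.2 and 28.4 per 100 kb. *Hr39*, another nuclear receptor gene, had 9 *scrib1*+*ab* and 6 *ab* peaks. *Blimp-1*, a zinc finger repressor that times the expression of *ftz-f1*, was the one with far more *ab* peaks, 13 against 4 in *scrib1*+*ab*, and 2 peaks of each list were shared. Of the peaks of these 9 genes 72.3% were shared in *scrib1*+*ab* (95% interval 57.4 to 84.4%) and 55.1% in *ab* (40.2 to 69.3%), and these intervals overlap those of *br* and *Eip75B*. *hth*, a long homeobox gene outside this list, had 43 *scrib1*+*ab* and 40 *ab* peaks, or 28.2 and 26.3 per 100 kb, a density close to that of *Eip75B*.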

How the data were processed

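Ab ChIP-Seq peak lists of 2 samples, *scrib1*+*ab* and *ab*, were analysed, 1 library per genotype. Per the study's methods, Bowtie was used to align the reads to dm3, and PeakSeq compared each library with its normalised input (READLENGTH 40, MAXGAP 40, MINFDR 0.01, PVALTHRESH 0.0001). The authors' deposited lists give arm, start and end, and the score that they deposited is 1 for every peak. They hold no heights or reads, so depth is unknown from them. The study's methods give read totals of similar size for the ChIP libraries of both samples and none for the inputs. Length was the only measure of a peak used here, and the place of a peak in the deposited list of its arm was not used. No test across samples was possible.

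Starts were converted to a count from 1. Windows, transcripts and stretches without a read track were read from the study's browser panels. Promoter regions (500 bp upstream of a start site) took precedence over exons and introns. Shares have exact 95% intervals. Counting of overlaps was tested on simulated data. In each window and list the 5 longest peaks, promoter peaks, shared partners among the 5 longest, peaks beside the 3 longest empty stretches and the longest unshared peak were named. Peaks named beyond that rule were chosen after their values were seen. The genes, lists and rules were chosen with earlier results of these data known. RefSeq (Release 6) was used for names only. No sequence is printed, as no dm3 sequence was used here. Scripts ran on Python 3.11.15 with SciPy 1.17.1 and NumPy 2.4.6, panels were read with Pillow 12.0.0, and plots were drawn with Matplotlib 3.10.9. Alternatives covered joining, minimum length, overlap, promoter length and a shift of the gene models by 1 pixel.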

Additional observations from a re-analysis of the deposited data

How the results depend on the processing

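No paired analysis was possible because each genotype had 1 library, and for the same reason leaving out a replicate was not run. Of 84 alternative values for 24 results, 59 stayed within the tolerance and 25 did not. The tolerance was 1.5 times for counts and stretches and the 95% interval of the reported value for shares and medians, which is wide with so few peaks. With peaks within 500 bp joined, *br* had 10 *scrib1*+*ab* and 10 *ab* regions and *Eip75B* 15 and 18. In the longer 50% of each list, *br* had 11 *scrib1*+*ab* and 9 *ab* peaks and *Eip75B* 20 and 17. Under a reciprocal overlap of 50%, shared peaks were 20% (*scrib1*+*ab*) and 23.5% (*ab*) in *br*, and 26.5% and 32.1% in *Eip75B*. With a gap of up to 500 bp they were 82.4% and 78.6% in *Eip75B*. Shares of the whole lists under these rules were not computed. The values therefore cannot be read against the whole-list shares of 58.2% and 59.1%, which hold for an overlap of at least 1 bp.

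Promoter counts moved too. In *br* the *scrib1*+*ab* count was 2 with 1000 bp upstream and 1 with the gene model shifted by 1 pixel to the left, and the *ab* count 2 with 250 bp and 2 by midpoint. In *Eip75B* the *scrib1*+*ab* count was 0 with 250 bp and 2 with 1000 bp, and the *ab* count 0 with a shift to the right and 0 by midpoint. The longest stretch between *scrib1*+*ab* peaks of *Eip75B* was 18406 bp with peaks of at least 40 bp and 16770 bp with both lists together, and that between *ab* peaks of *br* was 27325 bp with both lists together. Intron counts stayed within 1.5 times. Median lengths stayed within their intervals, yet the *scrib1*+*ab* median was over 1.5 times the reported one with peaks within 100 bp joined (122 bp in *br*, 120 bp in *Eip75B*) and, in *br*, with peaks of at least 40 bp (116 bp). The lists hold only called intervals, so a place without a peak may still carry reads, and how much depth limits this cannot be read from them. The read totals that the study gives for both ChIP libraries are of similar size, and the effect of depth at single places was not tested.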
